A study of Penaeus japonicus with 16 samples.

Results

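The transcripts of 2 tissues of the kuruma shrimp (Penaeus japonicus), hepatopancreas and muscle, were compared on single-colour microarrays. The comparison used 6 of the 16 arrays of the series, 3 of hepatopancreas and 3 of muscle, chosen by their tissue label. Hepatopancreas numbers in the labels are 1, 3 and 4, and muscle numbers are 1, 2 and 3. All animals were untreated and appeared healthy per the labels, which name neither strain, sex nor age and do not say which muscle was taken. The labels speak of triplicates and do not name the animals behind them. The p-values below therefore measure the spread among these 6 arrays, which may be technical. Of 13349 probes on the array that were neither controls nor probes for a virus, 7298 had a signal that the scanner software marked as detected on all usable arrays of 1 or both tissues. These were tested, and 6051 were not.

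The hepatopancreas is the digestive gland of decapod crustaceans. Its tubules secrete proteases, carbohydrases and lipases into the gut, take up the digested nutrients, store lipid and glycogen, and detoxify foreign compounds. It is also a known source of hemocyanin, the copper protein that carries oxygen in the hemolymph, and of lectins that bind sugars on microbes. Shrimp muscle is striated: myosin thick filaments slide past actin thin filaments, calcium released from the sarcoplasmic reticulum acts through troponin and tropomyosin, and bursts of work are paid for by phosphoarginine and by glycolysis. A probe's name below is the title of its best database match as the deposited table gives it, so it names a resemblance and not a proven shrimp gene, and several probes can share 1 transcript. Probes carry the table's cluster numbers. A level is the log2 of the probe's processed signal after division by the 75th percentile of its array, so 0 marks that percentile. Levels are always listed for hepatopancreas 1, 3 and 4 and for muscle 1, 2 and 3, in that order, and differences are hepatopancreas minus muscle with the standard error of limma's fit and its adjusted p (n = 3 arrays per tissue).

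Arrays of the same tissue resembled each other far more than arrays of the other tissue. Correlations over the tested probes were 0.825 to 0.947 within hepatopancreas, 0.908 to 0.928 within muscle and 0.239 to 0.395 between the tissues. Hepatopancreas 4 stood apart from the other hepatopancreas arrays: it had detected signal for 77.7% of probes (42.2 to 53.4% on the other 5 arrays), a 75th percentile signal of 134.4 (35.72 to 69.3 on the others), the lowest correlations within its tissue (0.825 and 0.832) and an array weight of 0.274 when limma estimated weights. Muscle 1 also stood apart, for hepatopancreas transcripts. Over the 266 probes at least 100-fold higher in hepatopancreas, the median level was -1.85 on muscle 1, -3.25 on muscle 2 and -3.81 on muscle 3, and 171, 112 and 45 of them had detected signal on those arrays. The source of these signals was not tested. For the called probes named below, each of the 6 arrays was left out in turn, and a fold that moved by more than 1.5 times or became a lower bound, or a call that was lost, is given beside them. The fold is a lower bound where the remaining arrays of the dimmer tissue had no detected signal.

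Of the tested probes, 2057 (28.2%) were called higher in hepatopancreas and 2022 (27.7%) higher in muscle, at an adjusted p below 0.05 and a difference of at least 2-fold. Together 55.9% of tested probes were called. Very large differences lay mostly on the hepatopancreas side: 907 calls for hepatopancreas and 556 for muscle were at least 10-fold, and 266 and 80 were at least 100-fold. In 1006 of the hepatopancreas calls no muscle array had detected signal, against 162 muscle calls with no detected signal in hepatopancreas. For such probes the fold is a lower bound, written as "at least", computed from the lowest signal that counted as detected on each array. The 2 counts rest on unlike limits: that lowest level was -4.41 on hepatopancreas 4 and -2.93 to -2.20 on the other arrays. Of the 2022 muscle calls 1840 had detected signal on hepatopancreas 4, against 1271 on hepatopancreas 1 and 1381 on hepatopancreas 3. Every hepatopancreas array lay above every muscle array for 2169 probes (29.7%), and the reverse held for 2457 (33.7%). The 2057 hepatopancreas calls carried 1279 distinct descriptions and the 2022 muscle calls 1599.

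**Figure D1:**
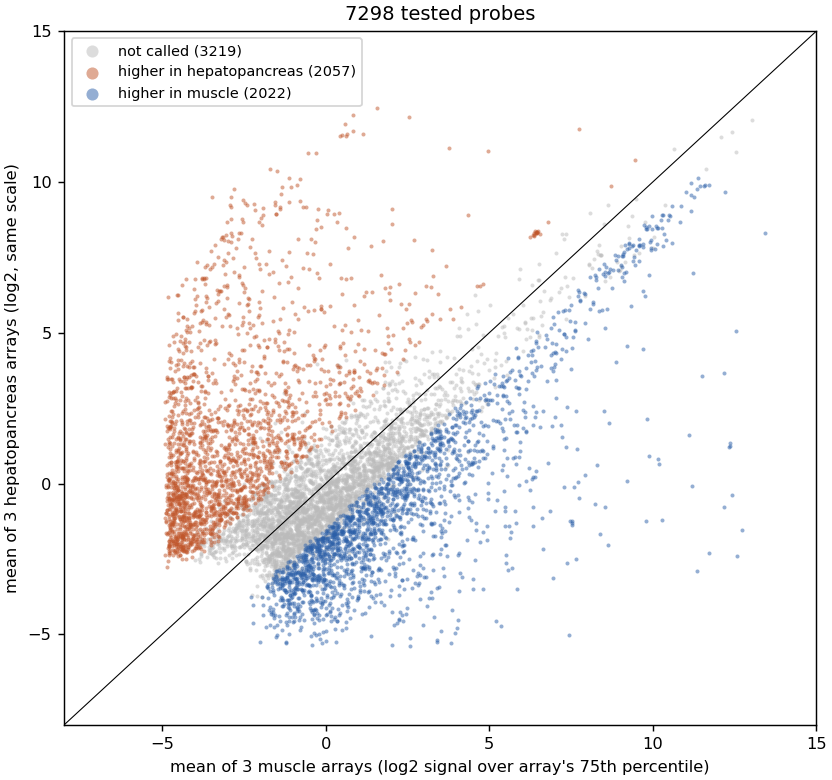
Mean level of each of the 7298 tested probes in muscle (horizontal) and hepatopancreas (vertical), as log2 of the signal over the array's 75th percentile. Orange points are the 2057 probes called higher in hepatopancreas, blue points the 2022 called higher in muscle, grey points were not called, and the line marks equal levels. The orange points form a column at the left edge, where muscle signal was at background, and the bright muscle probes at the right lie mostly below the line.

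The balance between the directions moved with the scaling of the arrays. Scaled instead to the probes detected on all 6 arrays, 2482 probes were higher in hepatopancreas and 1034 in muscle, so the hepatopancreas share of calls went from 50.4% to 70.6%, and the median difference of all tested probes from -0.41 to 0.43. No named probe turned from a call for 1 tissue to a call for the other under any setting tried. Among the 3754 probes that passed the detection filter in both tissues, 373 were called higher in hepatopancreas and 1172 in muscle. Their median difference was -0.88. Calls and medians given below for list members detected on all arrays of both tissues stand beside these values. List medians within about 1 log2 unit of 0 are therefore read below against the all-probe median. The arrays lay on 2 slides, slide 1 with hepatopancreas 1 and muscle 1 and 2, and slide 2 with hepatopancreas 3 and 4 and muscle 3. With the slide as a block, 1973 probes were higher in hepatopancreas and 1829 in muscle. Each slide held only 1 array of 1 of the tissues, so a fit within a slide has no spread for that tissue. Only differences are therefore given within slides. The median over tested probes was -0.424 within slide 1 and -0.368 within slide 2. The differences measured separately on the slides, which share no array, had a Pearson correlation of 0.914 across the 7292 probes measured on both, and 6467 (88.7%) had the same sign on both slides and 825 opposite signs. Lists with most calls for hepatopancreas lost muscle calls under the other scaling, from 12 to 3 for cathepsins and lysosomal proteins, 10 to 3 for detoxification enzymes, 10 to 4 for solute carriers, 8 to 4 for cuticle proteins, peritrophins and mucins, 8 to 5 for the cell cycle, and 4 to 1 each for lipid handling and carbohydrate-digesting hydrolases.

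The defining markers of each tissue followed the labels. The summed signal of 35 muscle marker probes (actins, tropomyosins, troponins, myosins, titin and twitchin titles) was 35600, 22400 and 30200 times the array's 75th percentile on the muscle arrays and 638, 690 and 963 on the hepatopancreas arrays, and 16 of the 35 were called higher in muscle and 2 in hepatopancreas. The 81 hepatopancreas marker probes (digestive proteases, amylase, chitinase, hemocyanin) summed to 35700, 79900 and 15200 on the hepatopancreas arrays and to 383, 144 and 113 on the muscle arrays, with 51 called higher in hepatopancreas and 3 in muscle. Muscle 1 had the highest hepatopancreas marker sum among the muscle arrays and hepatopancreas 4 the lowest among its own. Both tissues are mixtures of cells, and in whole-tissue RNA fewer cells of a type and less RNA per cell cannot be told apart. Hemocyte markers (52 probes, with titles such as crustin, transglutaminase, clotting protein and integrin) summed to 195 to 591 in hepatopancreas and 47.2 to 163 in muscle, with 8 probes called higher in hepatopancreas and 11 in muscle. Nerve markers (14 probes) summed to 17.7 to 35.9 and 7.93 to 11.3, and epidermis markers (54 probes) to 31.4 to 71.7 and 36.5 to 65.8. Of the nerve probes 2 were called higher in hepatopancreas and 1 in muscle, and of the epidermis probes 20 and 5. No muscle array detected 28 of the 54 epidermis probes, and no hepatopancreas array detected 5 of them. The part of these other cells in the differences below was not tested.

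**Figure D2:**
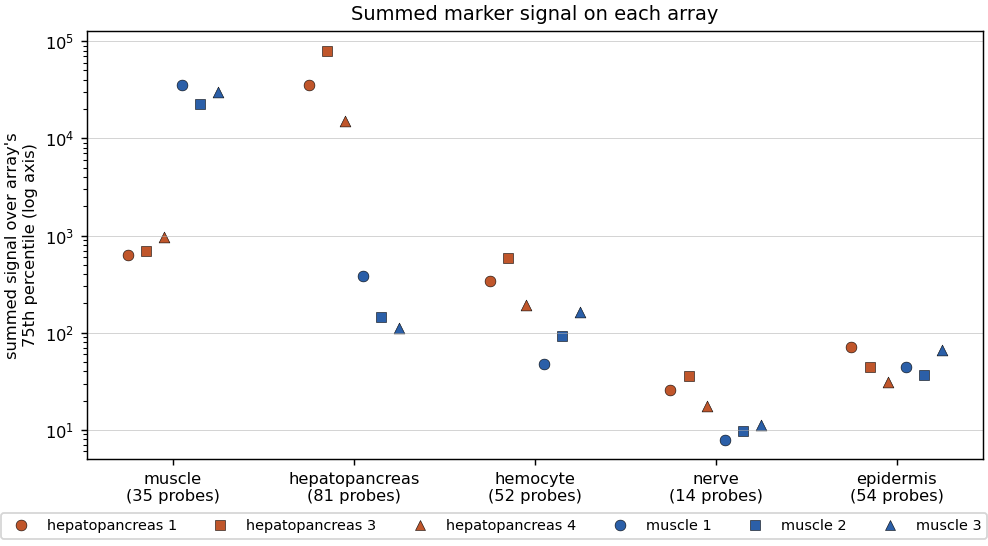
Summed signal of 5 sets of marker probes on each of the 6 arrays, in multiples of the array's 75th percentile on a logarithmic axis. Each symbol is 1 array, orange for hepatopancreas and blue for muscle. The muscle and hepatopancreas sets separate the tissues, and muscle 1 (blue circle) is the muscle array with the highest hepatopancreas sum, 383.

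Digestive serine proteases were among the transcripts that separated the tissues most. Of 20 trypsin and chymotrypsin probes on the array 19 were tested, 17 were higher in hepatopancreas and 1 in muscle, and the median difference was 9.57 (8.53 within slide 1 and 9.77 within slide 2) beside -0.41 for all tested probes. Of the 19, 12 passed the detection filter through hepatopancreas alone, a way of passing that favours a difference in that direction, while 7 were detected on all arrays of both tissues, 5 of these higher in hepatopancreas. A chymotrypsin-like protein (cluster012895) had levels of 9.28, 10.12 and 8.32 on the hepatopancreas arrays and 0.51, -5.02 and -4.31 on the muscle arrays. It had detected signal on muscle 1 only among the muscle arrays, and was 4639-fold higher in hepatopancreas (12.18 ± 1.24, adjusted p = 2.39e-05). Trypsin (cluster018140), which cuts after basic residues and activates other gut proteases, stood at 12.32, 13.27 and 11.10 on the hepatopancreas arrays and 3.68, -0.73 and -0.46 on the muscle arrays. All 6 arrays detected it, no muscle level reached the hepatopancreas range, and the difference was 2704-fold (11.40 ± 1.07, adjusted p = 1.57e-05). One trypsin probe did not separate the tissues: cluster005878 had levels of 4.52, 6.23 and 2.64 on the hepatopancreas arrays and 4.13, 3.49 and 5.80 on the muscle arrays, which overlapped (difference -0.01 ± 0.91, adjusted p = 0.994). The only member higher in muscle was trypsin domain containing 1 (cluster033951), by 3.09-fold (adjusted p = 0.0465). The fold of cluster012895 was at least 3591 without muscle 1, 2257 without muscle 2 and 2876 without muscle 3. The fold of cluster018140 was 7231 without muscle 1, 1574 without muscle 2 and 1734 without muscle 3. The call of cluster033951 was lost without hepatopancreas 1, hepatopancreas 4, muscle 2 or muscle 3 (adjusted p = 0.0773 to 0.15).

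Of 35 tested metallopeptidase and other peptidase probes, among them enzymes that finish protein digestion, 23 were higher in hepatopancreas and 2 in muscle (59 on the array, median 2.31, 20 of the 35 passing through hepatopancreas alone). The 14 detected on all arrays of both tissues had 5 calls for hepatopancreas and 2 for muscle, with a median of 0.146. Carboxypeptidase (cluster000652), which trims the end of peptides, had levels of 6.69, 7.07 and 5.01 on the hepatopancreas arrays and -4.51, -4.98 and -4.19 on the muscle arrays. The muscle levels were not well above background on any array, which made the difference at least 473-fold (adjusted p = 2.55e-06). Carboxypeptidase A2 (cluster026346) was 896-fold higher and dipeptidase 1-like (cluster032346), which splits dipeptides, at least 202-fold. A probe titled after the crystal structure of a zinc endopeptidase (cluster028434) was 3508-fold higher (11.78 ± 1.16, adjusted p = 1.99e-05), and all 6 tested probes with that title were called in the same direction. Astacin, a zinc endopeptidase of this kind, is a digestive enzyme of crayfish. The 2 members higher in muscle were methionyl aminopeptidase 2 (cluster011000) and probable aminopeptidase npepl1 (cluster008377), intracellular enzymes. The fold of cluster000652 was at least 729 without hepatopancreas 4. The fold of cluster026346 was at least 1067 without muscle 1 and 398 without muscle 2. The fold of cluster032346 was at least 104 without hepatopancreas 3 and at least 340.1 without hepatopancreas 4. The fold of cluster028434 was at least 3717 without muscle 1, 2077 without muscle 2 and 1951 without muscle 3. The call of cluster011000 was lost without hepatopancreas 3, muscle 2 or muscle 3 (adjusted p = 0.0881 to 0.0985). The fold of cluster008377 was 5.6 without hepatopancreas 4. The call of cluster008377 was lost without hepatopancreas 1, hepatopancreas 3, muscle 1, muscle 2 or muscle 3 (adjusted p = 0.0753 to 0.165).

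Enzymes that break down starch, chitin and other glycans followed the same direction. Of 67 probes for carbohydrate-digesting hydrolases on the array 43 were tested, 33 were higher in hepatopancreas and 4 in muscle, with a median of 5.59 (6.14 within slide 1, 4.89 within slide 2). Only 8 of them were detected on all arrays of both tissues, and of these 2 were called each way. A probable chitinase 3-like transcript (cluster003324) had levels of 9.46, 10.83 and 8.20 on the hepatopancreas arrays and 0.56, -4.98 and -4.31 on the muscle arrays. It was 5416-fold higher in hepatopancreas (12.40 ± 1.29, adjusted p = 2.77e-05), with detected signal on 1 muscle array, muscle 1. Chitinases cut the chitin of the shrimp's own gut lining and of its prey, and 16 of 19 tested chitinase probes were called higher in hepatopancreas and none in muscle. The next step, release of single sugars from chitin fragments, was represented by chitooligosaccharidolytic beta-N-acetylglucosaminidase: its 3 probes were all higher in hepatopancreas, cluster028496 by 1333-fold. Alpha-amylase (cluster008526), which cuts starch, had levels of 4.75, 5.17 and 3.76 on the hepatopancreas arrays and -4.38, -4.78 and -3.79 on the muscle arrays. None of the muscle arrays detected it, and all 3 amylase probes were higher in hepatopancreas. Maltases, which release glucose from maltose, split: maltase 2-like (cluster004811) was at least 101-fold higher in hepatopancreas, and 3 of the 6 maltase probes were higher in muscle, cluster004807 by 5.57-fold. The fold of cluster003324 was 3421 without hepatopancreas 3, 8481 without hepatopancreas 4, at least 4270 without muscle 1, 2647 without muscle 2 and 3327 without muscle 3. The fold of cluster028496 was 2048 without hepatopancreas 4, at least 959 without muscle 1 and 781 without muscle 2. The fold of cluster004811 was at least 171 without hepatopancreas 4. The fold of cluster004807 was at least 5.1 without hepatopancreas 3. The call of cluster004807 was lost without hepatopancreas 1 or muscle 1 (adjusted p = 0.0531 to 0.065).

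Few lipase probes could be tested, 7 of 20, and 4 were higher in hepatopancreas and none in muscle. Of the 7, 4 passed through hepatopancreas alone, and neither of the 2 detected on all arrays of both tissues was called. Pancreatic triacylglycerol lipase (cluster004191), which hydrolyses dietary fat, had levels of 5.45, 6.10 and 4.83 on the hepatopancreas arrays and -4.46, -4.49 and -3.77 on the muscle arrays. No muscle array detected it, and it was at least 273-fold higher in hepatopancreas (adjusted p = 2.34e-06). The lipases of stored fat did not pass: hormone-sensitive lipase (cluster012300) differed by -0.48 ± 0.98 and adipose triglyceride lipase brummer (cluster007789) by 0.87 ± 0.53. A p above the threshold does not show that their levels were alike.

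Lysosomal proteases showed large differences beside small opposite ones. Of 60 tested probes for cathepsins and lysosomal proteins (68 on the array), 35 were higher in hepatopancreas and 12 in muscle, with a median of 3.52. The 22 detected on all arrays of both tissues had 2 calls for hepatopancreas and 8 for muscle. Muscle calls also outnumbered hepatopancreas calls among all 3754 probes so detected, 1172 to 373. Cathepsin L (cluster023289), a cysteine protease that penaeid shrimp are known to secrete into the gut, had levels of 11.07, 11.67 and 10.09 on the hepatopancreas arrays and 3.12, -1.45 and -2.53 on the muscle arrays. It was 2406-fold higher in hepatopancreas (11.23 ± 1.21, adjusted p = 3.49e-05). A pair of other cathepsin L probes were higher in muscle, cluster021184 by 4.65-fold and cluster021274 by 4.44-fold. Cathepsin C removes dipeptides from the ends of proteins, and its 12 tested probes were all higher in hepatopancreas, cluster000857 the most, by 2381-fold (11.22 ± 1.01, adjusted p = 1.31e-05). The aspartic protease cathepsin D (cluster027031) was 2428-fold higher and legumain (cluster015793), which cuts after asparagine, at least 265-fold. Glucosylceramidase, which degrades a membrane glycolipid, had 5 of 5 probes higher in hepatopancreas. Cathepsin B (cluster010111) was at least 5.06-fold higher in muscle, with no hepatopancreas array detecting it. The fold of cluster023289 was 7804 without muscle 1 and 1105 without muscle 3. The fold of cluster021184 was 8.34 without muscle 3. The call of cluster021184 was lost without hepatopancreas 3, hepatopancreas 4, muscle 1 or muscle 2 (adjusted p = 0.0539 to 0.116). The fold of cluster021274 was 7.38 without muscle 3. The call of cluster021274 was lost without hepatopancreas 1, hepatopancreas 3, hepatopancreas 4, muscle 1 or muscle 2 (adjusted p = 0.0539 to 0.125). The fold of cluster000857 was at least 1885 without muscle 1 and 1428 without muscle 2. The fold of cluster027031 was at least 3214 without muscle 1 and 1418 without muscle 3. The fold of cluster010111 was at least 3.27 without hepatopancreas 4.

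All 11 hemocyanin probes were tested and called higher in hepatopancreas, with a median difference of 10.8 (10.5 within slide 1, 11.7 within slide 2). Cluster030517, detected on all 6 arrays, had levels of 11.61, 12.79 and 10.14 on the hepatopancreas arrays and 2.87, -0.81 and -0.17 on the muscle arrays. Cluster027645 stood at 10.91, 11.98 and 9.95 on the hepatopancreas arrays and 2.60, -1.70 and -2.54 on the muscle arrays, which made it 2882-fold higher (11.49 ± 1.16, adjusted p = 2.28e-05). Muscle 1 was the highest muscle array for all 11 probes and hepatopancreas 4 the lowest hepatopancreas array for all 11. Only the probe titled hemocyanin subunit 1 (cluster012446) had overlapping tissues, with levels of -0.48, -0.86 and -1.63 on the hepatopancreas arrays and -1.40, -3.76 and -4.37 on the muscle arrays and a difference of 2.19 ± 0.78 (adjusted p = 0.0357). The 11 probes carry 2 distinct titles and may not be independent genes, which was not tested. The fold of cluster030517 was 1218 without hepatopancreas 3, 3040 without hepatopancreas 4, 4124 without muscle 1 and 1144 without muscle 2. The fold of cluster027645 was 8599 without muscle 1 and 1448 without muscle 3. The fold of cluster012446 was at least 2.98 without muscle 1. The call of cluster012446 was lost without hepatopancreas 1, hepatopancreas 3, muscle 2 or muscle 3 (adjusted p = 0.0807 to 0.142).

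Of 31 tested probes for fatty acid and lipid handling 19 were higher in hepatopancreas and 4 in muscle (52 on the array, median 2.69, 21 passing through hepatopancreas alone). The 8 detected on all arrays of both tissues had 1 call for hepatopancreas and 4 for muscle. All 3754 probes so detected had 373 and 1172. Fatty acid binding protein 1b (cluster013973), a carrier of fatty acids inside cells, had levels of 8.44, 9.72 and 6.37 on the hepatopancreas arrays and -0.72, -4.69 and -4.06 on the muscle arrays. It was 2577-fold higher in hepatopancreas (11.33 ± 1.10, adjusted p = 1.9e-05). Apolipoprotein D-like (cluster012206), a lipid carrier, was at least 93-fold higher and long-chain fatty acid transport protein 4-like (cluster036416), which brings fatty acids into cells, 75.4-fold. A different carrier belonged to muscle: intracellular fatty acid binding protein (cluster001626) had levels of 1.96, 2.19 and 3.47 on the hepatopancreas arrays and 7.42, 8.02 and 6.73 on the muscle arrays, 28.8-fold higher in muscle (adjusted p = 1.01e-04). Probes for vitellogenin, the yolk precursor, split evenly, 2 higher in each tissue (cluster035810 at least 4.84-fold in hepatopancreas, cluster029332 5.29-fold in muscle). The fold of cluster013973 was 1510 without hepatopancreas 3, 4804 without hepatopancreas 4, at least 1710 without muscle 1 and 1520 without muscle 2. The fold of cluster012206 was at least 46.3 without hepatopancreas 3 and at least 240.0 without hepatopancreas 4. The fold of cluster036416 was at least 45.9 without muscle 2.

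C-type lectins, calcium-dependent sugar-binding proteins that recognise microbes, were the largest immune family measured, with 50 of 61 probes tested. Higher in hepatopancreas were 36, against 6 in muscle, and the median was 5.68 (6.01 within slide 1, 5.49 within slide 2). Of the 50, 39 passed through hepatopancreas alone, and of the 9 detected on all arrays of both tissues 1 was higher in hepatopancreas and 4 in muscle. All 3754 probes so detected had 373 calls for hepatopancreas and 1172 for muscle. Among probes with a protein name, detected on at least 1 array of each tissue, a C-type lectin (cluster014202) differed most towards hepatopancreas. Its levels were 9.52, 10.71 and 9.12 on the hepatopancreas arrays and 1.06, -5.17 and -4.35 on the muscle arrays. It was 6218-fold higher (12.60 ± 1.35, adjusted p = 3.36e-05), and muscle 1 was the only muscle array that detected it. In muscle the largest was cluster005048, at 0.25, 4.95 and -1.55 on the hepatopancreas arrays and 8.35, 7.79 and 5.86 on the muscle arrays, 69.5-fold higher in muscle (adjusted p = 0.0039). The fold of cluster014202 was at least 5221 without muscle 1, 2759 without muscle 2 and 3666 without muscle 3. The fold of cluster005048 was 254 without hepatopancreas 3, 26.7 without hepatopancreas 4 and 116 without muscle 3.

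Other immune effectors divided between the tissues. Of 20 tested antimicrobial peptide and lysozyme probes 7 were higher in hepatopancreas and 4 in muscle, shares near those of all probes, and the median was -0.064, a sign that turned with the scaling. Lysozyme (cluster027305), which cuts bacterial cell walls, had levels of 10.61, 11.35 and 9.18 on the hepatopancreas arrays and 1.30, -2.93 and -2.89 on the muscle arrays. It was 3778-fold higher in hepatopancreas (11.88 ± 1.07, adjusted p = 1.32e-05), and a second lysozyme probe (cluster013224) was at least 68.8-fold higher. Crustins, cysteine-rich antibacterial peptides, went both ways: crustin P cluster014343 was 501-fold higher in hepatopancreas and cluster033155 60.7-fold higher in muscle. The beta-glucan-binding protein (cluster023471), which recognises fungal walls and starts melanisation, was 3289-fold higher in hepatopancreas (11.68 ± 1.12, adjusted p = 1.78e-05). Levels there were 8.97, 9.43 and 7.90, and on muscle 1, 2 and 3 they were 0.15, -4.82 and -4.07, with only muscle 1 detected. The fold of cluster027305 was 5713 without hepatopancreas 4, at least 7858 without muscle 1, 2304 without muscle 2 and 2336 without muscle 3. The fold of cluster014343 was 803 without muscle 2 and 226 without muscle 3. The fold of cluster033155 was at least 26.8 without hepatopancreas 4, 132 without muscle 1 and 22.6 without muscle 3. The fold of cluster023471 was at least 2592 without muscle 1 and 1698 without muscle 2.

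Detoxification enzymes formed the list with the most tested probes. Of 128 probes 98 were tested, 62 were higher in hepatopancreas and 10 in muscle, and the median was 2.79 (3.37 within slide 1, 2.33 within slide 2). The direction also held among the 37 detected on all arrays of both tissues, with 17 higher in hepatopancreas and 5 in muscle. Cytochrome P450 enzymes, which oxidise foreign compounds, had 27 of 48 tested probes higher in hepatopancreas and 9 in muscle. Sulfotransferases, which attach sulfate for excretion, had 17 of 22 and none in muscle. Glutathione S-transferases, which attach glutathione, were more divided, 8 of 19 higher in hepatopancreas and 5 in muscle, where glutathione S-transferase M (cluster001661) was 68.9-fold higher (levels -4.26, -2.89 and -3.24 on the hepatopancreas arrays and 2.23, 2.47 and 3.22 on the muscle arrays). The sub-families were counted after the values were seen. The fold of cluster001661 was at least 35.7 without hepatopancreas 4.

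Membrane transporters followed with 29 of 68 tested solute carriers higher in hepatopancreas and 10 in muscle (median 1.32), with 168 on the array and 36 of the 68 passing through hepatopancreas alone. The 24 detected on all arrays of both tissues had 2 calls for hepatopancreas and 5 for muscle, with a median of -0.59. All 3754 probes so detected had 373 and 1172, with a median of -0.88. Solute carrier family member 1 (cluster031547) was at least 25.4-fold higher in hepatopancreas. In muscle, solute carrier family 25 member 38-like (cluster009959), of the mitochondrial carrier family, stood at -0.16, 0.34 and -2.48 on the hepatopancreas arrays and 5.45, 5.67 and 5.36 on the muscle arrays and was 76.7-fold higher. Facilitated trehalose transporter tret1-like (cluster035272), which by its title carries the sugar trehalose, was 13.9-fold higher in muscle (adjusted p = 0.02). The fold of cluster009959 was 42.4 without hepatopancreas 4. The fold of cluster035272 was 25.7 without hepatopancreas 1, 21.2 without hepatopancreas 3, 4.95 without hepatopancreas 4 and 21.2 without muscle 3. The call of cluster035272 was lost without muscle 2 (adjusted p = 0.0689).

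Chitin-associated proteins were mostly higher in hepatopancreas. Of 54 tested cuticle, peritrophin and mucin probes (86 on the array) 31 were higher in hepatopancreas and 8 in muscle, with a median of 2.45 and 34 passing through hepatopancreas alone. The 19 detected on all arrays of both tissues had 4 calls for hepatopancreas and 8 for muscle. All 3754 probes so detected had 373 and 1172. Peritrophins bind the chitin of the membrane that wraps food in the gut, and a peritrophin (cluster026578) had levels of 7.93, 8.39 and 6.78 on the hepatopancreas arrays and -1.10, -5.04 and -4.37 on the muscle arrays. It was 2350-fold higher (11.20 ± 0.96, adjusted p = 1.06e-05), and mucin-like peritrophin (cluster010462) 836-fold. Differences of the probes with cuticle in their title were at most 4.93, and cuticle protein 5a (cluster010098) was 32-fold higher in muscle. The fold of cluster026578 was at least 1226 without muscle 1 and 1380 without muscle 2. The fold of cluster010462 was 538 without hepatopancreas 3 and at least 866 without muscle 1.

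**Figure D3:**
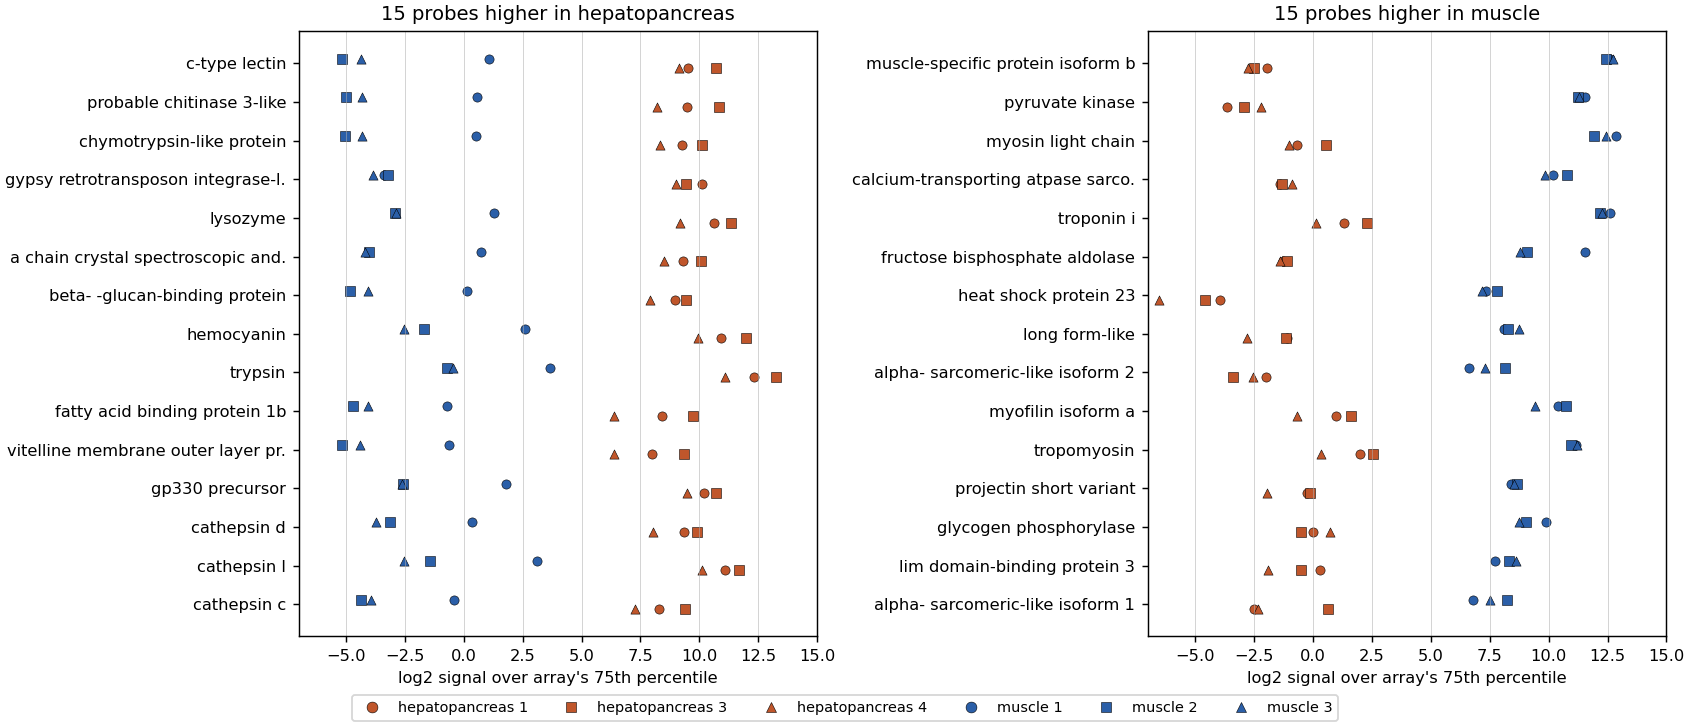
Levels of the 15 named probes with the largest differences in each direction among probes with a protein name, 1 probe per description, as log2 signal over the array's 75th percentile. Each symbol is 1 array (orange hepatopancreas, blue muscle). No probe shown has overlapping tissues, and muscle 1 (blue circles) lies above muscle 2 and 3 for nearly every probe on the left.

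Muscle calls began with the contractile filaments. Of 15 tested probes for actins, tropomyosins and troponins (19 on the array), 10 were higher in muscle and 1 in hepatopancreas. All 15 were detected on every array of both tissues, and the median difference was -3.61 (-3.12 within slide 1, -3.98 within slide 2). Troponin I (cluster019457), the subunit that holds the thin filament off at rest, had levels of 1.34, 2.30 and 0.12 on the hepatopancreas arrays and 12.62, 12.20 and 12.26 on the muscle arrays. It was 2209-fold higher in muscle (-11.11 ± 0.60, adjusted p = 1.87e-06), and the 3 troponin I probes lay close together. Tropomyosin (cluster017779), the rod that covers the myosin sites on actin, stood at 2.00, 2.54 and 0.33 on the hepatopancreas arrays and 11.17, 10.95 and 11.22 on the muscle arrays, 719.8-fold higher in muscle. Muscle actin (cluster028308) had levels of 3.90, 3.85 and 3.26 on the hepatopancreas arrays and 12.54, 11.62 and 12.35 on the muscle arrays, a difference of 360.5-fold (adjusted p = 1.96e-06). Actin probes were not alike: cluster028590 was 25.5-fold higher in hepatopancreas with levels of 6.65, 6.19 and 6.58 on the hepatopancreas arrays and 3.02, 0.52 and 1.87 on the muscle arrays, while cluster028193 and cluster028595 differed by 0.91 ± 0.44 and 1.03 ± 0.45 without passing the test. Troponin C (cluster001520), the calcium sensor, was 24.1-fold higher in muscle and troponin T-like (cluster028357), which ties the complex to tropomyosin, 11.6-fold. The fold of cluster017779 was 459 without hepatopancreas 4. The fold of cluster028590 was 38.9 without muscle 1 and 16.3 without muscle 2. The fold of cluster001520 was 13.7 without hepatopancreas 4.

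Thick filament probes were few, 6 tested of 12, with 4 higher in muscle and 1 in hepatopancreas. Myosin light chain (cluster006705), which stiffens the lever arm of the motor, had levels of -0.67, 0.56 and -0.995 on the hepatopancreas arrays and 12.87, 11.93 and 12.43 on the muscle arrays. It was 7016-fold higher in muscle (-12.78 ± 0.57, adjusted p = 7.36e-07), and a second myosin light chain (cluster011621) was 1631-fold higher. Myosin light chain 2 (cluster035946) pointed to hepatopancreas, by 8.26-fold (adjusted p = 0.0219), with overlapping levels of 1.49, 2.58 and 0.14 on the hepatopancreas arrays and -2.26, 0.50 and -3.17 on the muscle arrays. The fold of cluster035946 was 12.8 without hepatopancreas 4 and 17.4 without muscle 2. The call of cluster035946 was lost without hepatopancreas 1, hepatopancreas 3, muscle 1 or muscle 3 (adjusted p = 0.0562 to 0.0848).

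The list of elastic and anchoring proteins of the sarcomere held the largest difference among probes with a protein name. Of 18 tested Z-disc and giant muscle protein probes (32 on the array) 12 were higher in muscle and 1 in hepatopancreas, with a median of -4.68. Of the 18, 9 passed through muscle alone, and the 8 detected on all arrays of both tissues had 4 calls for muscle and a median of -3.07. The probe titled muscle-specific protein isoform b (cluster036930) had levels of -1.96, -2.52 and -2.75 on the hepatopancreas arrays and 12.59, 12.42 and 12.75 on the muscle arrays. Of the hepatopancreas arrays only hepatopancreas 4 detected it, and it was 32610-fold higher in muscle (-14.99 ± 0.50, adjusted p = 1.6e-07). Projectin (cluster026176), the titin-like spring of arthropod muscle, was 636-fold higher and LIM domain-binding protein 3 (cluster013462), a Z-disc protein, 487-fold. Titin (cluster007462) was 104-fold higher, kettin (cluster009488), which joins actin to the Z-disc, 42.5-fold and muscle LIM protein (cluster010925) 52.3-fold. A calponin 2 title (cluster018049) and a putative calponin (cluster018050), of an actin-binding family, did not pass, with differences of -0.44 and 0.32. A calponin transgelin title (cluster010758) was called higher in muscle, with a difference of -4.97. Its fitted difference was -4.77 without muscle 1 and -4.32 without hepatopancreas 4, and its other leave-outs are not given. The fold of cluster036930 was at least 28920 without hepatopancreas 4. The fold of cluster026176 was 421 without hepatopancreas 4. The fold of cluster013462 was 322 without hepatopancreas 4. The fold of cluster007462 was at least 70.7 without hepatopancreas 4. The fold of cluster009488 was at least 14.2 without hepatopancreas 4.

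Calcium handling was represented by 4 tested probes, 2 called each way. The sarcoplasmic calcium pump (cluster001714), which clears calcium after contraction, had levels of -1.41, -1.32 and -0.87 on the hepatopancreas arrays and 10.20, 10.78 and 9.83 on the muscle arrays. It was 2838-fold higher in muscle (-11.47 ± 0.53, adjusted p = 7.36e-07), and a second probe for the pump (cluster001728) was 294-fold higher. Another probe of the same title and the same assembled locus (cluster001725) was at least 3.44-fold higher in hepatopancreas, at -0.49, -0.75 and -1.31 on the hepatopancreas arrays and -4.86, -3.52 and -4.23 on the muscle arrays, with no muscle array detecting it. Ryanodine receptor-like (cluster009672), the calcium release channel, was also higher in hepatopancreas, by 14.1-fold (adjusted p = 0.00175). The fold of cluster001728 was 187 without muscle 2. The fold of cluster009672 was 22.6 without hepatopancreas 4.

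**Figure D4:**
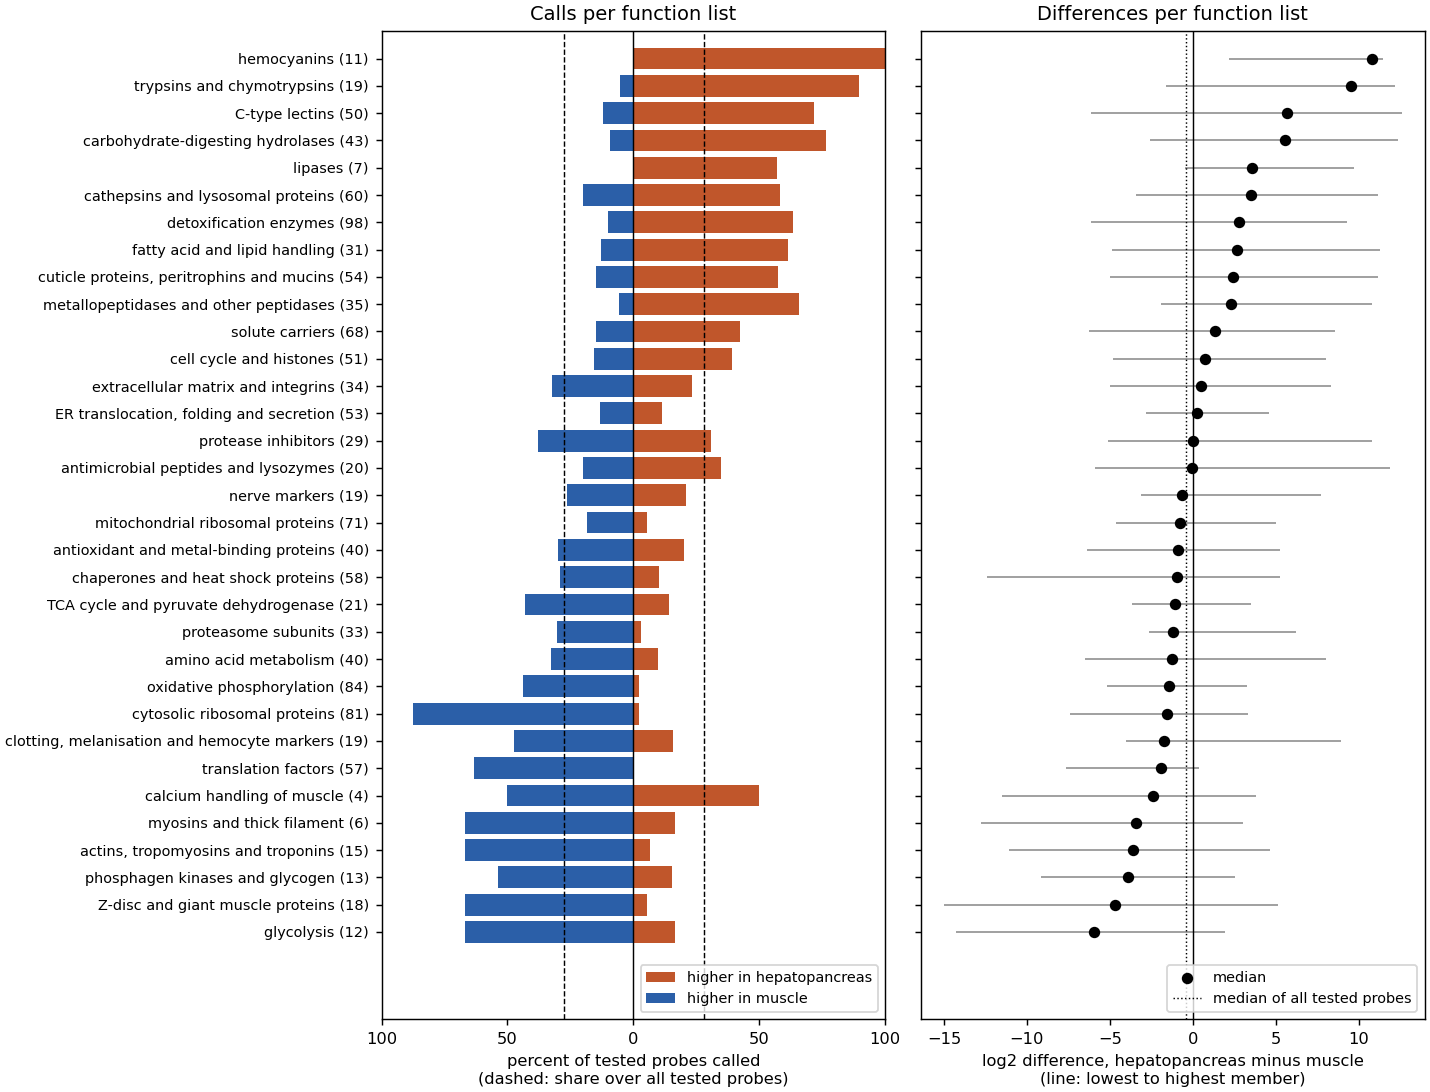
Function lists ordered by their median difference, with the number of tested probes in brackets. The left panel gives the percent of tested probes called higher in each tissue, with dashed lines at the shares over all tested probes (28.2% and 27.7%). The right panel gives the median, lowest and highest log2 difference, with the median of all tested probes (-0.41) dotted. Digestive, hemocyanin and lectin lists lie at the top and contractile and glycolytic lists at the bottom.

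Glycolysis probes were mostly higher in muscle. Of 12 tested probes (13 on the array) 8 were higher in muscle and 2 in hepatopancreas, and the median was -5.96 (-6.18 within slide 1, -5.45 within slide 2). The 8 detected on all arrays of both tissues had 5 calls for muscle and 2 for hepatopancreas. Hexokinase isoform a (cluster036086), which traps glucose at the entry, and an aldolase probe (cluster009293) were the 2 called for hepatopancreas. Levels of the hexokinase were 0.97, 1.99 and 0.42 on the hepatopancreas arrays and -0.27, -0.94 and -0.30 on the muscle arrays, and it was 3.1-fold higher in hepatopancreas (adjusted p = 0.0438). Phosphoglucose isomerase (cluster008631), the next enzyme, stood at 2.03, 2.44 and 1.58 on the hepatopancreas arrays and 10.10, 7.81 and 8.10 on the muscle arrays and was 101-fold higher in muscle. Fructose bisphosphate aldolase (cluster009289), which splits the sugar, had levels of -1.27, -1.10 and -1.40 on the hepatopancreas arrays and 11.56, 9.07 and 8.77 on the muscle arrays, a difference of 2129-fold (-11.06 ± 0.74, adjusted p = 3.47e-06). Each of these muscle calls was free of overlap between the tissues. The call of cluster036086 was lost without hepatopancreas 1, hepatopancreas 3, muscle 1, muscle 2 or muscle 3 (adjusted p = 0.0708 to 0.179). The call of cluster009293 was lost without hepatopancreas 1, hepatopancreas 3, muscle 1, muscle 2 or muscle 3 (adjusted p = 0.0525 to 0.0987). The fold of cluster008631 was 61.5 without muscle 1. The fold of cluster009289 was 1160 without muscle 1.

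The later steps of the pathway were measured by more probes. Triosephosphate isomerase (cluster026744) was 38.1-fold higher in muscle, phosphoglycerate kinase (cluster003267) 68.6-fold and enolase (cluster030590) 207-fold. Pyruvate kinase (cluster016488), which makes the last ATP of glycolysis, had levels of -3.63, -2.91 and -2.19 on the hepatopancreas arrays and 11.53, 11.24 and 11.27 on the muscle arrays. It was 19530-fold higher in muscle (-14.25 ± 0.56, adjusted p = 4e-07), with hepatopancreas 4 the only array of that tissue detecting it. Lactate dehydrogenase A (cluster005638), which regenerates NAD when oxygen runs short, varied most within muscle among these probes, with levels of 8.25, 1.12 and 4.09 and hepatopancreas levels of -2.91, -4.11 and -2.51 (difference -7.67 ± 1.42, adjusted p = 0.00124). Muscle 1 was the highest muscle array for 11 of the 12 glycolysis probes, by a median of 2.06 over the mean of the other two, and without it the median of the list was -4.85. The remaining triosephosphate isomerase probes did not pass, with differences of -0.78 and 1.49. All tested members of this and the other lists of up to 21 probes were open to naming, a choice made after their values were seen. The fold of cluster026744 was 19.3 without muscle 1 and 62.8 without muscle 2. The fold of cluster003267 was 43.4 without muscle 1. The fold of cluster016488 was at least 14870 without hepatopancreas 4. The fold of cluster005638 was at least 128 without hepatopancreas 4, 55.1 without muscle 1 and 652 without muscle 2.

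Energy reserves of muscle were also measured. Of 13 tested probes for phosphagen kinases and glycogen enzymes (16 on the array) 7 were higher in muscle and 2 in hepatopancreas, with a median of -3.92. The 6 detected on all arrays of both tissues had 3 calls for muscle and none for hepatopancreas. Arginine kinase (cluster020823), which stores and returns high-energy phosphate in arthropod muscle, was bright in both tissues, with levels of 7.98, 7.89 and 9.05 on the hepatopancreas arrays and 13.88, 12.93 and 13.46 on the muscle arrays, and 34.7-fold higher in muscle (-5.12 ± 0.45, adjusted p = 1.23e-05). Glycogen phosphorylase (cluster031476), which releases glucose units from glycogen, stood at 0.02, -0.52 and 0.71 on the hepatopancreas arrays and 9.88, 9.02 and 8.74 on the muscle arrays, 568-fold higher in muscle. Phosphorylase b kinase regulatory subunits (cluster036301 and cluster005995), which switch phosphorylase on, were at least 43-fold and 60.1-fold higher, and glycogen synthase (cluster008623) 15.1-fold. Glycogenin 1 (cluster036578), the protein that starts a glycogen particle, was 5.84-fold higher in hepatopancreas instead (adjusted p = 0.00683). The fold of cluster036301 was at least 27.8 without hepatopancreas 4. The fold of cluster005995 was at least 42.4 without hepatopancreas 4. The fold of cluster008623 was at least 8.47 without hepatopancreas 4. The fold of cluster036578 was at least 5.51 without muscle 3.

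Mitochondrial energy genes differed by less and depended on the scaling. Of 84 tested oxidative phosphorylation probes 37 were higher in muscle and 2 in hepatopancreas, with a median of -1.43, about 1 log2 unit below that of all probes. The 77 detected on all arrays of both tissues had a median of -1.49, beside -0.88 for all 3754 probes so detected. Scaled to probes detected on all 6 arrays, 12 were called for muscle, and 21, 15 and 18 were without hepatopancreas 1, muscle 2 or muscle 3. Cytochrome c oxidase subunit III (cluster019644), part of the enzyme that reduces oxygen, had the largest difference, at -0.93, -1.39 and -2.38 on the hepatopancreas arrays and 3.68, 3.70 and 3.53 on the muscle arrays, 36.8-fold higher in muscle. NADH:ubiquinone dehydrogenase (cluster016124), of complex I, was 25.2-fold higher. The TCA cycle list had 9 of 21 tested probes higher in muscle and 3 in hepatopancreas (median -1.07), with 5 for muscle without any 1 of hepatopancreas 1, hepatopancreas 3, muscle 2 or muscle 3, and 5 under the other scaling. Citrate synthase (cluster031165), the first enzyme of the cycle, was 6.95-fold higher in muscle. Isocitrate dehydrogenase probes split, cluster023411 12.5-fold higher in muscle and cluster003801 5.19-fold higher in hepatopancreas. Mitochondrial ribosomal proteins had 13 of 71 higher in muscle (18.3%, below the 27.7% of all tested probes) and 4 in hepatopancreas. Beside an all-probe median of -0.41 theirs was -0.75. Cluster007481 was 24.3-fold higher in muscle and cluster011838 32.7-fold higher in hepatopancreas. The median of this list changed sign under the other scaling. For muscle, 29 were called without hepatopancreas 4, 8 without hepatopancreas 3, 5 without hepatopancreas 1 or muscle 3 and 4 without muscle 2. The call of cluster003801 was lost without muscle 2 (adjusted p = 0.0502). The fold of cluster007481 was at least 8.81 without hepatopancreas 4.

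The protein synthesis machinery shifted towards muscle in the same modest way. Of 81 tested cytosolic ribosomal protein probes, all detected on every array of both tissues, 71 were higher in muscle and 2 in hepatopancreas. Their median was -1.55, beside -0.88 for all 3754 probes so detected. Under the other scaling 14 passed for muscle, and the medians were -1.61 within slide 1 and -1.69 within slide 2. Without hepatopancreas 1, muscle 2 or muscle 3 the muscle calls were 33, 29 and 22. Translation factors had 36 of 57 higher in muscle and none in hepatopancreas (median -1.89), and 21 under the other scaling. Elongation factor 1-beta (cluster007939), which recharges the factor that brings aminoacyl-tRNA to the ribosome, had levels of -3.97, -2.55 and -4.20 on the hepatopancreas arrays and 3.41, 4.50 and 4.31 on the muscle arrays and was at least 140.0-fold higher in muscle. Its hepatopancreas signal was not well above background on any array. Apart from that machinery, proteasome subunits had 10 of 33 higher in muscle and 1 in hepatopancreas (median -1.20), and 1 for muscle under the other scaling. Their muscle share was 30.3%, near the 27.7% of all tested probes. Leaving out 1 array gave 2 muscle calls without hepatopancreas 1, 5 without hepatopancreas 3, 19 without hepatopancreas 4, 6 without muscle 1, 4 without muscle 2 and 3 without muscle 3.

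Of 58 tested chaperone and heat shock protein probes 17 were higher in muscle and 6 in hepatopancreas, with a median of -0.94. The muscle share was 29.3%, near the 27.7% of all tested probes. Under the other scaling 9 were called for muscle and 10 for hepatopancreas (median -0.096), and the muscle calls were 9, 11 and 9 without hepatopancreas 1, muscle 2 or muscle 3. Heat shock protein 23 (cluster028355), a small chaperone, had levels of -3.95, -4.56 and -6.55 on the hepatopancreas arrays and 7.33, 7.80 and 7.16 on the muscle arrays. No hepatopancreas array detected it and it was at least 1525-fold higher in muscle (adjusted p = 2.06e-06), with another small heat shock protein (cluster022933) 82.4-fold higher. The T-complex protein 1 ring folds actin and tubulin, and 7 of its 9 tested subunit probes were higher in muscle and none in hepatopancreas (counted after the values were seen). On the hepatopancreas side, heat shock cognate 70 (cluster006452) was 12.2-fold higher. The fold of cluster028355 was at least 986 without hepatopancreas 4.

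Some probes of related proteins pointed in opposite directions. Of 570 descriptions carried by at least 2 tested probes, 109 (19.1%) had calls in both directions, 98 had every probe higher in hepatopancreas and 60 every probe higher in muscle. Calls in both directions were also found in 51 of 363 assembled loci (14%) with several tested probes, though some loci join unrelated titles. Over all tested probes 28.2% were called for hepatopancreas and 27.7% for muscle, so groups of unrelated probes could also split. Whether related probes split more often than those was not tested. Ribosomal protein S11, part of the small ribosomal subunit, was measured by a pair of probes from 1 assembled locus: cluster005736 had levels of 3.93, 5.02 and 4.45 on the hepatopancreas arrays and 1.41, 0.98 and 1.08 on the muscle arrays and cluster005737 levels of -1.90, -1.09 and -2.41 on the hepatopancreas arrays and 5.30, 5.85 and 5.72 on the muscle arrays. The former was 9.9-fold higher in hepatopancreas and the latter 172-fold higher in muscle, each without overlap between tissues. Aldolase behaved alike, cluster009293 being 3.86-fold higher in hepatopancreas and cluster009289 2129-fold higher in muscle, both from 1 locus. Muscle-specific protein isoform b gave 34.9-fold higher in hepatopancreas for cluster010827 and 32610-fold higher in muscle for cluster036930. What sets such pairs apart was not tested. The call of cluster009293 was lost without hepatopancreas 1, hepatopancreas 3, muscle 1, muscle 2 or muscle 3 (adjusted p = 0.0525 to 0.0987). The fold of cluster009289 was 1160 without muscle 1. The fold of cluster036930 was at least 28920 without hepatopancreas 4.

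**Figure D5:**
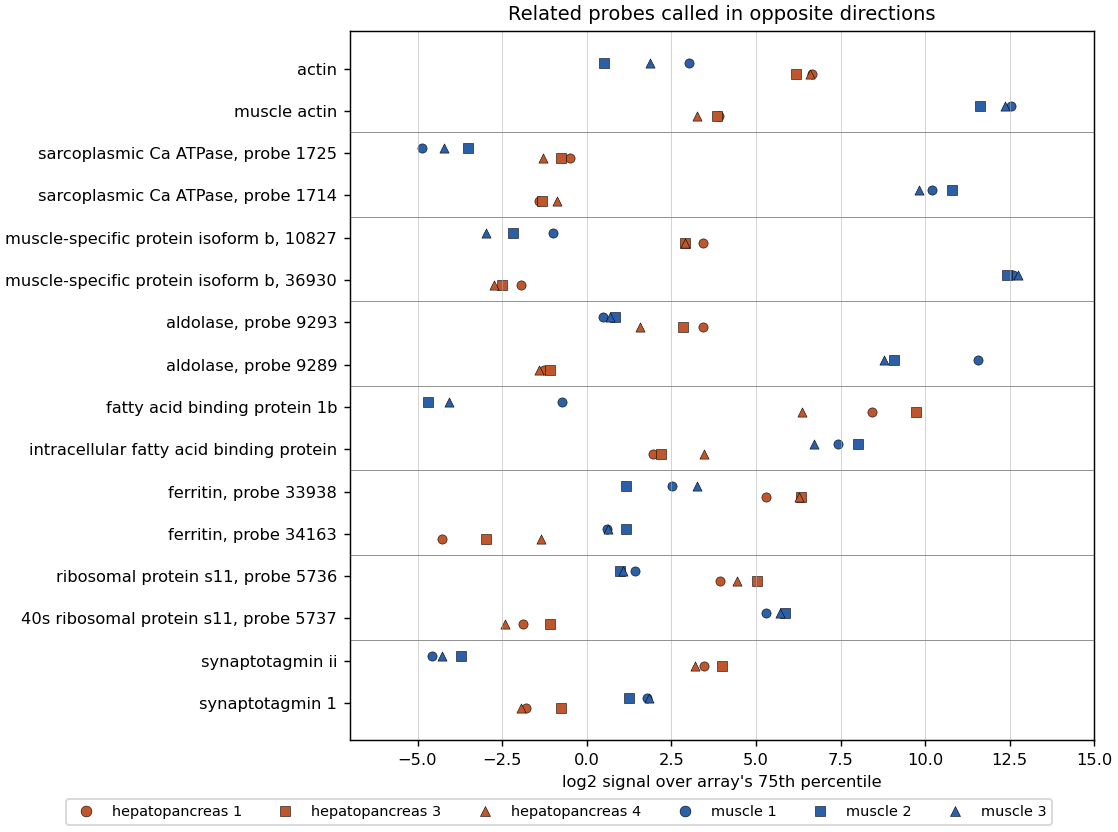
Levels on each array, as log2 signal over the array's 75th percentile, of 8 pairs of probes with the same or related names that were called in opposite directions. Each symbol is 1 array (orange hepatopancreas, blue muscle). Within each pair the upper probe is higher in hepatopancreas and the lower probe higher in muscle, with no overlap between tissues.

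Iron and redox proteins had calls in both directions. Of 40 tested antioxidant and metal-binding probes 12 were higher in muscle and 8 in hepatopancreas (median -0.90). These shares of 30% and 20% stand beside 27.7% and 28.2% of all tested probes. Under the other scaling 10 were called for each tissue. Ferritin, which stores iron, had 4 of 5 tested probes higher in muscle and 1 in hepatopancreas (median -3.06, counted after the values were seen). The latter, cluster033938, stood at 5.28, 6.33 and 6.26 on the hepatopancreas arrays and 2.51, 1.16 and 3.24 on the muscle arrays. It was 12.6-fold higher in hepatopancreas. Against it, cluster034163 stood at -4.28, -2.98 and -1.36 on the hepatopancreas arrays and 0.59, 1.15 and 0.62 on the muscle arrays, 12.6-fold higher in muscle, and the ferritin light chain (cluster012524) was 9.92-fold higher in muscle. A copper/zinc superoxide dismutase title (cluster032149), an enzyme that removes superoxide, was 83.1-fold higher in muscle. The fold of cluster034163 was 7.76 without hepatopancreas 1 and at least 9.87 without hepatopancreas 4. The fold of cluster032149 was at least 66.2 without hepatopancreas 4 and 126 without muscle 1.

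Of 29 tested protease inhibitor probes 9 were higher in hepatopancreas and 11 in muscle. These shares of 31% and 37.9% stand beside 28.2% and 27.7% of all tested probes. The median was -0.016, with a sign that turned with the scaling. Muscle calls were 7 without muscle 2 and 7 under the other scaling. The 11 detected on all arrays of both tissues had 9 calls for muscle and 1 for hepatopancreas. Protease inhibitor epi11 (cluster006744) had levels of 8.31, 7.96 and 6.26 on the hepatopancreas arrays and -1.12, -4.77 and -3.99 on the muscle arrays and was 1789-fold higher in hepatopancreas. A Kazal-type serine protease inhibitor-like protein (cluster035591), of a family that blocks trypsin-like enzymes, was 511-fold higher there. The wide-range trap alpha 2-macroglobulin (cluster015622) was 15.4-fold higher in muscle, and none of its 7 tested probes was called for hepatopancreas. Inter-alpha-trypsin inhibitor heavy chain H3 (cluster000094) was 34.1-fold higher in muscle. The fold of cluster006744 was 2759 without hepatopancreas 4, at least 1082 without muscle 1 and 1075 without muscle 2. The fold of cluster035591 was 831 without muscle 2 and 276 without muscle 3. The fold of cluster015622 was at least 12.7 without hepatopancreas 4 and 9.45 without muscle 2. The fold of cluster000094 was 57.4 without muscle 3.

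Amino acid metabolism had 13 of 40 tested probes higher in muscle and 4 in hepatopancreas (median -1.23, and 0.142 within slide 2). These shares of 32.5% and 10% stand beside 27.7% and 28.2% of all tested probes. Under the other scaling 6 were called for muscle and 7 for hepatopancreas. Glycine C-acetyltransferase (cluster008329), which makes or uses glycine, had levels of -0.25, -0.02 and -0.41 on the hepatopancreas arrays and 6.91, 6.24 and 5.58 on the muscle arrays, 88.7-fold higher in muscle. Ornithine aminotransferase (cluster025891) was 24.9-fold higher and glutamate dehydrogenase (cluster031991), which links glutamate to the TCA cycle, 16.6-fold. D-amino acid oxidase (cluster002157) was among the 4 of the other direction, 135-fold higher in hepatopancreas. The ER list, of proteins for translocation, folding and glycosylation, had few calls, 6 of 53 for hepatopancreas and 7 for muscle (median 0.25), against 18 and 1 (median 1.08) under the other scaling. Calreticulin (cluster010359), a calcium-binding chaperone of the ER, was 5.21-fold higher in hepatopancreas, and the oligosaccharyltransferase subunit STT3A (cluster018897), which attaches glycans to new proteins, 24.3-fold. The fold of cluster025891 was 15.1 without muscle 1. The fold of cluster002157 was 235 without hepatopancreas 4 and at least 113 without muscle 3. The fold of cluster010359 was 3.09 without hepatopancreas 4. The call of cluster010359 was lost without muscle 2 (adjusted p = 0.0683).

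Of 51 tested cell cycle and histone probes 20 were higher in hepatopancreas and 8 in muscle (102 on the array, median 0.76, 20 passing through hepatopancreas alone), a list that by its wording also took in a reverse transcriptase title. Among 6 tested MCM probes, subunits of the helicase that opens DNA for replication, 4 were higher in hepatopancreas and 1 in muscle. DNA polymerase eta (cluster008255), a repair polymerase, had levels of 4.76, 6.01 and 5.78 on the hepatopancreas arrays and -2.77, -2.36 and -2.48 on the muscle arrays, 266-fold higher in hepatopancreas. A DNA polymerase delta catalytic subunit (cluster008732) was 28.5-fold higher in muscle. The fold of cluster008255 was at least 256 without muscle 2. The fold of cluster008732 was at least 14.8 without hepatopancreas 4.

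Genes of blood cells, nerve and connective tissue, which run through both organs, went both ways. Of 19 tested clotting, melanisation and hemocyte probes 9 were higher in muscle and 3 in hepatopancreas (median -1.73). Muscle calls were 5 without muscle 2 and 1 under the other scaling. The summed hemocyte marker signal was nevertheless higher on every hepatopancreas array. Hemocyte transglutaminase, which cross-links the shrimp clot, had cluster016651 25.6-fold higher in hepatopancreas and cluster016661 8.66-fold higher in muscle. The clotting protein precursor (cluster003845), which it links, was 7.21-fold higher in muscle, at -2.74, -1.88 and -3.68 on the hepatopancreas arrays and 1.46, -0.70 and -0.50 on the muscle arrays. Proclotting enzyme cluster023430 was 486-fold higher in hepatopancreas. Nerve markers had 5 of 19 higher in muscle and 4 in hepatopancreas (median -0.64, with a sign that turned with the scaling and 3 muscle calls without muscle 2 and 2 under the other scaling), among them synaptotagmin 1 (cluster024911), the calcium sensor of transmitter release, 8.77-fold higher in muscle and synaptotagmin ii (cluster005810) at least 72.5-fold higher in hepatopancreas. Extracellular matrix and integrin probes had 11 of 34 higher in muscle and 8 in hepatopancreas (median 0.52, and -0.43 within slide 1). For muscle and hepatopancreas, the nerve shares were 26.3% and 21.1% and the matrix shares 32.4% and 23.5%. They stand beside 27.7% and 28.2% of all tested probes. SPARC (cluster006058), a collagen-binding matrix protein, was 32.5-fold higher in muscle and collagen alpha-3 (cluster004339) at least 86.7-fold higher in hepatopancreas. The fold of cluster016651 was 56.6 without muscle 2 and 14.1 without muscle 3. The fold of cluster016661 was 13 without hepatopancreas 1 and 15 without muscle 3. The call of cluster016661 was lost without hepatopancreas 3 or muscle 2 (adjusted p = 0.0821 to 0.084). The fold of cluster003845 was 4.48 without muscle 1. The fold of cluster023430 was at least 311 without muscle 2. The fold of cluster006058 was 19.4 without hepatopancreas 4.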

How the data were processed

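Total RNA of each tissue had been labelled with Cy3 and hybridised by the authors to a custom Agilent array, per the labels' protocols, and scanner files were read with Feature Extraction 10.7.3.1, per the submitters' processing notes. The deposited intensity values are the scanner's processed signal per probe, per the file headers, and the deposited log2 values of the series equal log2 of that signal minus each array's 75th percentile. Here log2 of the processed signal, less the array's 75th percentile over probes that were neither controls nor for a virus, was tested with limma 3.58.1 in R 4.3.3 (tissue as the only term, eBayes with a trend, 3 against 3 arrays, Benjamini-Hochberg adjustment over 7298 probes). A probe was tested if the deposited flag read detected on all usable arrays of 1 or both tissues (spots flagged compromised were left out), and called at an adjusted p below 0.05 and a 2-fold difference. Controls and 526 virus probes were left out. Alternatives were other scalings, quantile normalization, other filters, a floor for low signals, array weights, all 16 arrays in the fit, the slide as a block and leaving out arrays. The fit was tested on simulated data with 100 probes changed at each size and 6992 unchanged. It called 0% of true differences of 1 log2 unit, 8% of those of 2 and 74% of those of 4. Of the unchanged probes it called 0.0572%. Far fewer probes were changed there than were called between the tissues, so these rates need not hold for the comparison.

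The probes named are the 15 largest differences in each direction among called probes with a protein name. Also named are up to 4 per function list and direction and marker probes. In lists with fewer than 2 calls they are the 2 with the highest mean. Members and lists were chosen with earlier results of these data known, and lists were trimmed on their descriptions. Sub-families were chosen after their values were seen. Replicate numbers shared by the tissues are 1 and 3 only, and deviations of same-numbered arrays correlated at 0.056 and 0.0463, so the numbers were not taken to pair arrays.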

Additional observations from a re-analysis of the deposited data

Results flagged for a closer look

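Probes designed for a virus, which no comparison used, had detected signal on every array of these apparently healthy animals. Of 526 such probes, 74, 95 and 108 were detected on hepatopancreas 1, 3 and 4 and 96, 92 and 56 on muscle 1, 2 and 3. The 1 negative control probe was detected on 0 of the arrays. The source of these signals was not tested.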

How the results depend on the processing

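Calls for hepatopancreas were 2057 and for muscle 2022. Hepatopancreas calls fell to 1066 within slide 2 and to 377 among probes detected in both tissues. Muscle calls were 1034 when arrays were scaled to the probes detected on all 6, 961 within slide 1, 568 within slide 2 and 1187 among probes detected in both tissues. Fewer arrays or probes entered the fits within slides and among probes detected in both tissues. The cause of the change under the other scaling was not tested. Leaving out 1 array gave 1751 to 2234 hepatopancreas calls and 1498 to 2335 muscle calls. With the shared numbers as a replicate block the calls were 2121 and 2087, and since the labels do not pair the arrays this is given as a count only. Leaving out hepatopancreas 4 and muscle 1 together, chosen after seeing the data, gave 2273 and 2326. Of 216 named probes none reversed, and 94 lost their call under at least 1 setting, 271 times in all. The settings counted there include the fits within slides. With 3 arrays per tissue, the number of arrays limits the precision, and signal at background limits the folds of probes seen in 1 tissue.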

Other observations

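Several groups outside the function lists, picked after their values were seen, also separated the tissues. Titles of reverse transcriptases and retrotransposons, mobile elements that copy themselves through RNA, were carried by 90 probes, of which 57 were tested, and 53 of the 57 were called higher in hepatopancreas and 2 in muscle (28.2% and 27.7% of all tested probes were). Of the 57, 38 passed the detection filter through hepatopancreas alone, which favours a difference in that direction. Their median level was 3.52, 2.84 and 2.10 on hepatopancreas 1, 3 and 4 and -0.95, -0.52 and -3.00 on muscle 1, 2 and 3. The median difference was 3.95, with 4.12 within slide 1 and 4.85 within slide 2. When arrays were scaled to the probes detected on all 6, 53 were called for hepatopancreas and 1 for muscle. A gypsy retrotransposon integrase-like title (cluster015867) had levels of 10.09, 9.41 and 9.02 on the hepatopancreas arrays and -3.38, -3.21 and -3.85 on the muscle arrays and was at least 4507-fold higher in hepatopancreas. The 57 probes carry 11 descriptions between them, so they may not be 57 separate elements. Vitelline membrane outer layer protein 1 titles had 10 of 10 tested probes higher in hepatopancreas (cluster006780 2529-fold), and sphingomyelin phosphodiesterase, which splits a membrane lipid, 8 of 8, of which 6 had no detected signal in muscle. V-type ATPase subunits, a proton pump of endosomes and lysosomes, had 7 of 13 higher in hepatopancreas and none in muscle, though 4 without muscle 1. Their median difference was 1.81, with 2.32 within slide 1 and 1.54 within slide 2. The fold of cluster006780 was 1531 without hepatopancreas 3, 4330 without hepatopancreas 4, at least 1418 without muscle 1 and 1370 without muscle 2.

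In muscle, trehalose-phosphate synthase, an enzyme of trehalose synthesis, had 6 of 6 tested probes higher, cluster028477 by at least 144-fold with no hepatopancreas array detecting it. Transcription regulators were found on both sides. Sox-8-like (cluster027824) was at least 324-fold higher in hepatopancreas and ets homologous factor (cluster006772) 875-fold. The basic helix-loop-helix inhibitor extramacrochaetae (cluster010774) was at least 593-fold higher there, while of the other tested probes with ets and extramacrochaetae titles 1 each was called for muscle. A title of heart and neural crest derivatives expressed transcript 2 (cluster031525), a bHLH factor of vertebrate heart, had levels of 1.15, 0.78 and -0.68 on the hepatopancreas arrays and 6.20, 5.98 and 7.09 on the muscle arrays and was 64.2-fold higher in muscle. Reticulon titles, membrane-shaping ER proteins, had 3 of 4 probes higher in muscle. Of the 4079 called probes 626 carried no protein name, 338 higher in hepatopancreas and 288 in muscle. The fold of cluster028477 was at least 92.8 without hepatopancreas 4 and at least 256 without muscle 3. The fold of cluster006772 was 3956 without muscle 2 and 265 without muscle 3.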
